A study of Mus musculus with 12 samples.

Results

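Fragments of the small nuclear RNAs of the spliceosome, of Y RNAs and of 7SK were followed in small RNA-seq libraries of mouse embryonic stem cells (ESCs), pluripotent cells of the early embryo kept in culture. The members were selected by name and by reads: rows of the deposited table named U1, U2, U4, U5, U6, U7, U11, U12, U4atac, U6atac, Y_RNA, 7SK, Metazoa_SRP, Rmrp or Rpph1, or beginning with Rnu, Rny or Vaultrc, entered when they held 3 or more reads summed over 12 libraries. Of 1757 rows with such names, in a table of 32101 rows, 27 were selected, and they held 10050 of the 10075 reads on those names. The other rows held little: 1708 had 0 reads, 19 had 1 and 3 had 2. The least-read members were a U11 copy on chromosome X with 3 reads and a U6 copy with 4, so the members closest to the rule differ from the rows left out by a read or so. No row matched Metazoa_SRP, Rmrp, Rpph1, Rnu, Rny or Vaultrc, and the RNAs of the signal recognition particle, RNase MRP, RNase P and the vault were not analysed here.

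The libraries were grouped by their genotype label. There were 6 libraries of WT (numbers 1 to 3, each with letters A and B), while Dnmt1 KO (genotype Dnmt1 -/-) had 2 (A and B), and Dicer/Dnmt1 KO (genotype Dicer/Dnmt1 -/-) had 4 (1A and 1B, 2A and 2B). Dnmt1 copies DNA methylation at replication, and Dicer cuts hairpins and double-stranded RNA into miRNAs and siRNAs. All libraries were labelled as E14 ESCs, whereas the methods of the study describe the parental line with loxP-flanked Dnmt1 as C57BL/6 and the double knockout as made from it by CRISPR/Cas9, so a difference of line between WT and the knockouts cannot be told apart from genotype. WT 2A and 2B are titled E14 2, without a genotype in the title, and are named the E14 2 pair here. Letters A and B of the same number form a pair and are taken as 1 culture. Dnmt1 KO A and B have no number and are taken as 1 culture too. The labels do not name cultures, so the word culture stands for such a pair here. Values of a group are given in the order of the libraries as listed here. Nothing in the labels says of a given pair whether A and B were separate cells or repeat libraries of 1 RNA, so p-values may measure technical spread only.

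Small nuclear RNAs (snRNAs) are short, abundant, noncoding RNAs of the nucleus. U1, U2, U4, U5 and U6 build the major spliceosome, which removes most introns, and U11, U12, U4atac and U6atac take the places of U1, U2, U4 and U6 in the minor spliceosome, which removes a rare class of introns, while U5 serves both. Apart from U6 and U6atac they are made by RNA polymerase II and carry an Sm site, a short U-rich stretch on which a ring of Sm proteins is built. U7 guides the 3′ end processing of histone mRNAs, 7SK holds the elongation factor P-TEFb in an inactive complex, and Y RNAs bind the Ro60 and La proteins and are known for their fragments in small RNA libraries. The reads examined here were 20 to 24 nt long, so each read was a fragment of these RNAs and its level is no measure of the intact RNA. In bulk libraries fewer cells and less RNA per cell cannot be told apart.

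A row is called by its name and chromosome, with a letter in order of position where a chromosome has several members. Sequences are given first, because they set which copies a 20 nt read can tell apart. All were read from genome build NCBIM37, the build of the files, on the strand of the row, from 5′ to 3′. The 2 members named Y_RNA lie on chromosome 6, Y_RNA-chr6a at chr6:47731623-47731724 and Y_RNA-chr6b at chr6:47738068-47738179. RefSeq (GRCm38.p6) lists Rny3 and Rny1 beside the same neighbour, Pdia4, at 14417 and 7961 bases from it, where the files have 14417 and 7962 bases, so these rows are called Y3 and Y1. Capitals mark runs of 8 or more bases that the other Y RNA also holds.
Y1 (Y_RNA-chr6b): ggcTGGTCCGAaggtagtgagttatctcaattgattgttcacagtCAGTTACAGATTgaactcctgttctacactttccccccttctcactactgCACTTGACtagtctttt
Y3 (Y_RNA-chr6a): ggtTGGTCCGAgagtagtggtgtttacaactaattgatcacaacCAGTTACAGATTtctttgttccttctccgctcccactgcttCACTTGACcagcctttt

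U5 copies that share most of their sequence differed in level between libraries. There were 7 members among 10 U5 rows, and each was 116 bases long. Their 5′ part was common: the 82 bases at the 5′ end were the same in U5-chr1a and U5-chr4a, and 70 bases in U5-chr9b, U5-chr4b, U5-chr4c and U5-chr9a, while U5-chr1b differed after 26. RefSeq lists Rnu5g at the place of U5-chr9b beside Parp16.

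The best-read snRNAs of the other families are shown with the letters ATTTTT in capitals, which are typical of the Sm site. U4atac-chr1 lies at chr1:120355718-120355842 on the minus strand, in an intron of Clasp1 and opposite to it. U11-chr4 lies at chr4:131825995-131826128 on the minus strand, U12-chr15 at chr15:82980074-82980224 on the plus strand, at the place of Rnu12 beside Poldip3, and U2-chr1 at chr1:72272814-72273004 on the plus strand.
U4atac-chr1: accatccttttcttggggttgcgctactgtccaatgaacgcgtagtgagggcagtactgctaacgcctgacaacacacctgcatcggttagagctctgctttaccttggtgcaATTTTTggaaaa
U11-chr4: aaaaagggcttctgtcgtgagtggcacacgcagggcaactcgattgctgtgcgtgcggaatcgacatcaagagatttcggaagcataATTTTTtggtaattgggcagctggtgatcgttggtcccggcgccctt
U12-chr15: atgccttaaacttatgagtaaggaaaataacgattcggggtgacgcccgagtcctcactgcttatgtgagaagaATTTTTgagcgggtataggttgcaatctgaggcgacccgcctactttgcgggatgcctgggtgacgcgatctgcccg
U2-chr1: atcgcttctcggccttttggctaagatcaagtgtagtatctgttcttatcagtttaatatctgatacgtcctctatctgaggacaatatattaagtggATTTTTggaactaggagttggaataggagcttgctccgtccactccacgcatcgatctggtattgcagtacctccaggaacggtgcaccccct

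Few copies of each family held the reads. U5 had 2703 reads on its 7 members and Y_RNA 3916 reads on 2 members of 24 rows. U2 had 1232 reads on 4 members of 51 rows, U4atac 787 reads on its only row, U11 643 reads on 2 of 5 rows and U12 468 reads on 1 of 6 rows. 7SK had 124 reads on 2 members of 331 rows, U7 73 reads on 1 of 116 rows, U4 58 reads on 2 of 43 rows and U6atac 22 reads on 1 of 28 rows. U6, with 936 rows the family with the most copies, had 18 reads on 3 members, and U1, which pairs with the 5′ splice site, had 6 reads on 1 of 206 rows. Y1 alone held 3023 reads, which was 30.1% of all reads on members, and the 10 best-read members held 91.4%.

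How reads with several places in the genome were assigned is not given in the sources used here, and this bears on most members. The share of a row's 20-base windows that occur once in the genome had a median of 25.4% over the 27 members, against 83.1% over the 1708 rows of the same names with 0 reads. U4atac was the exception, with 100% of its windows unique. Among the other well-read rows the share was 66.3% in Y3, 61.7% in U11-chr4, 40.9% in Y1, 33.0% in U5-chr1a, 22.7% in U5-chr4a and U5-chr4b, 17.4% in U2-chr1, 12.4% in U5-chr9b and 11.4% in U12-chr15. The level of a single copy other than U4atac is uncertain for this reason.

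Members that overlap a protein-coding gene shared their reads with that gene's row. U5-chr1a lies in an exon of B930036N10Rik on the same strand, and of the 889 reads listed for that gene 887 were also listed for U5-chr1a, with a difference of at most 1 read in any library. Clasp1 was listed with 821 reads, 34 more than the 787 of U4atac, although U4atac lies on the opposite strand, so the counting did not separate strands there. U7-chr6 lies in an exon of Grcc10 and an intron of Atn1 on the same strand and accounted for 73 reads where these genes were listed with 76 and 81. Values of B930036N10Rik and Clasp1 in this table are therefore largely those of the U5 and U4atac rows.

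A short motif, chosen with the upstream sequences in view, stood before a larger share of members than of unread copies. snRNA and Y RNA genes are transcribed from promoters with a proximal sequence element (PSE) a short distance before the start. The letters TCACC, chosen after these upstream sequences had been seen, were searched on the strand of the row only, starting 40 to 75 bases before it. They were found for 14 of 27 members (51.9%), for 10 of the 15 members with 100 reads or more, for 36 of 1708 rows of the same names with 0 reads (2.11%) and for 3.38% of all 32099 rows with a full window. Among 153 rows annotated as snRNA or miscellaneous RNA under other names, 10 held them (6.54%). The excess in members was partly set by how the letters were chosen and is a description only. Y3 and the U5 copies on chromosomes 4 and 9a held no such letters in that window, which says only that these letters are not there. For Y1, U4atac and U12, which hold it, the 100 bases before the row are shown with TCACC in capitals.
Y1, chr6:47738180-47738279: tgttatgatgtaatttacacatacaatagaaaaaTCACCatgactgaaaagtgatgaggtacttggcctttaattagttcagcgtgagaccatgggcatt
U4atac-chr1, chr1:120355843-120355942: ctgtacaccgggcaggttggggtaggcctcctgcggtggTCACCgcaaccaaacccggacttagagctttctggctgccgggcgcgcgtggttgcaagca
U12-chr15, chr15:82979974-82980073: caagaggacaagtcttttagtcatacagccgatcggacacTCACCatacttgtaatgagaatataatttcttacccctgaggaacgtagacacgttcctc

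Depth was low, from 8710 reads in Dicer/Dnmt1 KO 1B to 245184 reads in WT 1A, so 1 read was worth 4.08 to 114.8 RPM (reads scaled to 1000000 library reads). Rows of miRNAs took 39.3% of table counts in WT, 52.4% in Dnmt1 KO and 8.97% in Dicer/Dnmt1 KO on average, and snoRNA rows 14.6%, 7.99% and 28.8%. Reads on the deleted genes do not check the labels: Dicer1 had 0 to 3 reads in any library, and Dnmt1 had 62 reads in WT, 17 in Dnmt1 KO and 14 in Dicer/Dnmt1 KO, which over the summed library reads was 81.3, 97 and 56.6 RPM. Dnmt1 was thus not lower in Dnmt1 KO than in WT, and the table does not say whether these fragments lie inside the deleted part. Library WT 2A had the fewest reads on members, 13, and the highest share of table counts in miRNA rows, 65.8%. The first of these is a value of the members themselves, so it is no criterion apart from the results. The U5, U4atac, U2 and Y3 results are also given without WT 2A or without its pair. The 11 listed ESC miRNA genes (Mir290 and Mir302 clusters) summed to 28680 to 93270 RPM in WT, 55930 and 99650 RPM in Dnmt1 KO and 1221 to 3797 RPM in Dicer/Dnmt1 KO. The mesenchymal list, of which 9 of 10 genes were in the table, summed to 9238 to 14960 RPM, 39380 and 48020 RPM, and 11130 to 35390 RPM, and of the 6 neural miRNA genes listed only 1 was in the table, at 0 reads. These shares and sums moved with the groups, and their part in the levels below was not tested.

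The first question was what share of the small RNA reads came from these RNAs in each genotype. The mean share on members was 0.658% ± 0.367 for WT (SD, n = 6). It was 0.527% ± 0.0866 for Dnmt1 KO (SD, n = 2), and for Dicer/Dnmt1 KO it was 1.31% ± 0.112 (SD, n = 4). The WT libraries had 0.971%, 0.953%, 0.0805%, 0.351%, 0.901% and 0.693%, from 13 reads in 2A (95% Wilson interval 0.0471% to 0.138%) to 2381 reads in 1A (0.933% to 1.01%). Dnmt1 KO A and B had 0.588% and 0.466%, inside the range of WT. The 4 Dicer/Dnmt1 KO libraries had 1.21%, 1.31%, 1.47% and 1.26%, all above all 6 WT libraries on this base. The ratio of the group means was 1.99 for Dicer/Dnmt1 KO over WT and 0.801 for Dnmt1 KO over WT. A higher share in Dicer/Dnmt1 KO was not particular to the members. Of table counts, snoRNA rows took 14.6% in WT and 28.8% in Dicer/Dnmt1 KO on average. Protein-coding rows took 24.7% and 42.2%, and rRNA rows 0.489% and 1.95%, while mitochondrial rows went the other way (4.23% and 2.29%). Since a share moves with the other reads of its library and miRNA rows took less in Dicer/Dnmt1 KO, the share was also taken over table counts outside miRNA rows, where the ratios were 1.56 and 0.99. On that base the groups overlapped, with WT 1A at 1.72%, above the 1.29% to 1.61% of the Dicer/Dnmt1 KO libraries. A read can be listed for more than 1 row, and WT 1B had 181772 table counts on 145026 library reads. The classes of table counts therefore overlap, and rows outside the miRNA rows can still hold miRNA reads. The ratios of the share of library reads without the E14 2 pair were 1.49 and 0.599. These sums over members chosen by their reads are given as a description, without a test.

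**Figure D1:**
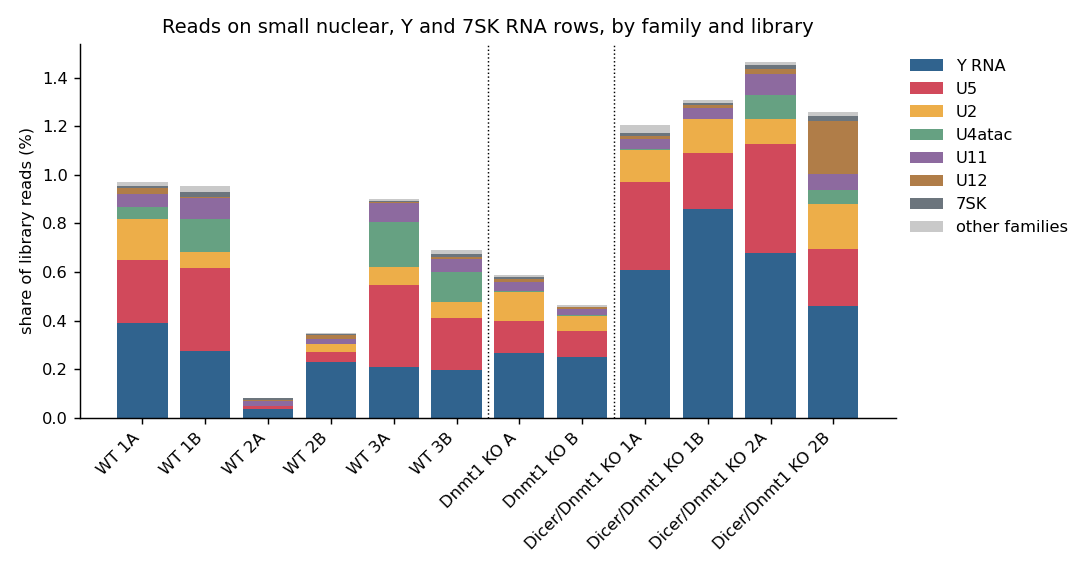
Share of library reads (%, vertical axis) on members, stacked by family, in each of the 12 libraries, with dotted lines between WT, Dnmt1 KO and Dicer/Dnmt1 KO. The 4 Dicer/Dnmt1 KO bars stand at 1.21% to 1.47%, above all WT bars, WT 2A stands at 0.0805%, and the U12 part is widest in Dicer/Dnmt1 KO 2B.

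Row by row, 16 of the 27 members passed the filter on low values and were tested among 683 rows. The filter asked for 111.3 RPM in at least 2 libraries and 15 reads in total, and the 11 members left out had at most 45 reads. A row was called at an adjusted p under 0.05 (limma on scaled log2(RPM + 10), Benjamini-Hochberg over 683 rows). In Dnmt1 KO against WT 0 of 16 members were called, where 6.88% of all tested rows were. An unadjusted p under 0.05 was reached by 1 of 16 members and by 125 of all 683 rows. With voom weights 0 members and 80 of 683 rows were called. In Dicer/Dnmt1 KO against WT 1 of 16 was called, U5-chr1a, where 24.2% of all tested rows were. In Dicer/Dnmt1 KO against Dnmt1 KO 0 of 16 were called, where 22.8% of all tested rows were. There 0 members and 187 of all 683 rows had an unadjusted p under 0.05, and voom weights called 0 members and 170 of 683 rows. Both comparisons with WT share the WT libraries. The median log2 fold change of the 16 was -0.28, -0.30 and 0.29 in the 3 comparisons, beside 0.13, -0.09 and -0.16 over all tested rows.

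**Figure D2:**
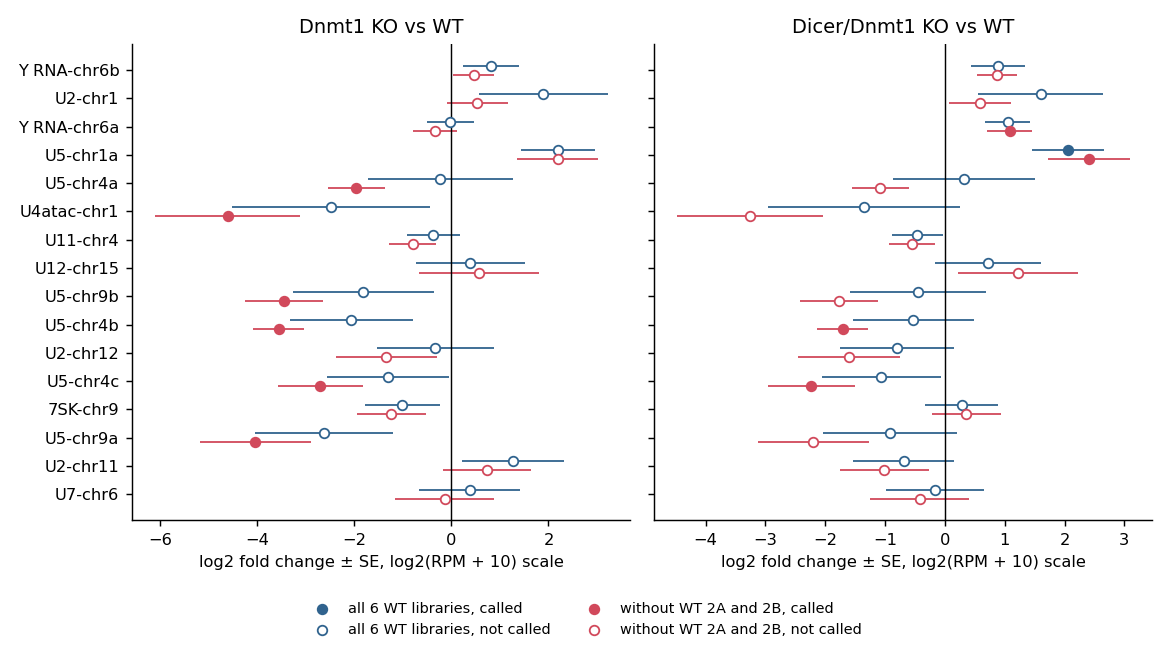
Log2 fold change with its SE (horizontal axis, log2(RPM + 10) scale) of the 16 tested members in Dnmt1 KO against WT and in Dicer/Dnmt1 KO against WT, with all 6 WT libraries (blue) and without the E14 2 pair (red), filled where the adjusted p was under 0.05. With all libraries only U5-chr1a in Dicer/Dnmt1 KO is filled, and without the E14 2 pair the 5 other U5 copies and U4atac are filled to the left in Dnmt1 KO.

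U5-chr1a was the 1 member called in Dicer/Dnmt1 KO against WT, where it was higher. The fitted value was above 0 for 7 of the 16 tested members. U5 holds the exon ends together in the catalytic centre of the spliceosome. In WT the U5-chr1a row had 123.9 RPM in the lowest library, a median of 170.1 and 872.8 RPM in the highest, WT 1A. It had 930.9 and 864.3 RPM in Dnmt1 KO A and B, and 3226, 803.7, 2302 and 1261 RPM in Dicer/Dnmt1 KO. The Dicer/Dnmt1 KO range reached below WT 1A through library 1B, which had 7 reads on this row, and the other 3 libraries lay above all WT libraries. The log2 fold change in Dicer/Dnmt1 KO was 2.06 (SE 0.60, limma adjusted p 0.0213). In Dnmt1 KO the fitted value was of like size but was not called (2.19, SE 0.76, limma adjusted p 0.117), and between the knockouts it was -0.13 (SE 0.81, limma adjusted p 0.946). The call against WT was lost when A and B were summed per culture (limma adjusted p 0.0769), with culture as a random block (limma adjusted p 0.0815), with culture number as a replicate block (1.87, limma adjusted p 0.154), without a filter (1.98, limma adjusted p 0.732) and without Dicer/Dnmt1 KO 1A (1.81, limma adjusted p 0.0686) or 2B (2.01, limma adjusted p 0.0535). Without WT 1A the row was called in Dnmt1 KO too (2.53, limma adjusted p 0.0346).

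The other U5 copies were not called in any comparison over all libraries. U5-chr4a, with 794 reads the second U5 row by reads, had 0 RPM in WT 2A, a median of 797.0 and at most 1621 RPM in WT, 325.1 and 130.1 RPM in Dnmt1 KO, and 285.8, 803.7, 1230 and 504.3 RPM in Dicer/Dnmt1 KO. U5-chr9b had 0, 371.4 and 868.8 RPM as the lowest, median and highest WT values, 29.6 and 37.2 RPM in Dnmt1 KO, and 40.8, 229.6, 520.3 and 252.2 RPM in Dicer/Dnmt1 KO. U5-chr4b had 0, 358.7 and 662.0 RPM in WT, 29.6 and 18.6 RPM in Dnmt1 KO, and 81.7, 344.4, 220.7 and 119.4 RPM in Dicer/Dnmt1 KO. For each of these 3 copies the values of the knockouts lay inside the WT range, whose low end was set by WT 2A and 2B: U5-chr9b had 0 and 5 reads there and U5-chr4b 0 and 6. In WT 2A a count of 0 allows up to 185.9 RPM, so low levels were not detectable in that library. Against WT the log2 fold changes in Dnmt1 KO were -0.23 for U5-chr4a (SE 1.49), -1.81 for U5-chr9b (SE 1.45) and -2.06 for U5-chr4b (SE 1.27), and in Dicer/Dnmt1 KO 0.32 (SE 1.18), -0.45 (SE 1.14) and -0.53 (SE 1.01), with limma adjusted p from 0.435 to 0.964. Without WT 2A alone U5-chr4b was called in Dnmt1 KO (-2.95, limma adjusted p 0.0300).

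The sum over all U5 rows was not called. It had a log2 fold change of 0.06 in Dnmt1 KO (SE 0.85, limma adjusted p 0.978) and 0.50 in Dicer/Dnmt1 KO (SE 0.67, limma adjusted p 0.695), each against WT. Sums over rows of a symbol do not depend on how reads were placed among the rows of a family. They can still depend on how reads with places outside those rows were treated. In U5-chr1a a 20-base window had up to 24 places in the genome, against 10 U5 rows. Of 668 tested symbols 9 were sums that hold members, and 0 of these 9 were called in Dnmt1 KO against WT (6.29% of all symbols called), 0 in Dicer/Dnmt1 KO against WT (24.4%) and 0 in Dicer/Dnmt1 KO against Dnmt1 KO (23.5%). An unadjusted p under 0.05 was reached by 0, 1 and 0 of them, and by 119, 225 and 186 of all 668 symbols. With voom weights 0 of these sums were called in each comparison as well, where 71, 193 and 172 of 668 symbols were.

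The share of U5 reads that fell on U5-chr1a needs no scaling between libraries. It was 33.8% in WT 1A (95% Wilson interval 30.2% to 37.6%), 3.64% in 1B (2.32% to 5.69%), 57.4% in 2B (44.9% to 69.0%), 3.66% in 3A (1.94% to 6.81%) and 10.0% in 3B (7.14% to 13.8%), while 2A had only 2 U5 reads, both on U5-chr1a. It was 70.0% and 79.5% in Dnmt1 KO A and B (59.9% to 78.5% and 71.3% to 85.8%). In Dicer/Dnmt1 KO it was 88.8%, 35.0%, 51.0% and 53.5%. Libraries of 1 culture could differ by more than counting error: WT 1A and 1B had 33.8% and 3.64%, and Dicer/Dnmt1 KO 1A and 1B had 88.8% of 89 reads and 35.0% of 20 reads (18.1% to 56.7%). The groups overlapped, since WT 2B lay above 3 Dicer/Dnmt1 KO libraries. These intervals cover counting error only.

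**Figure D3:**
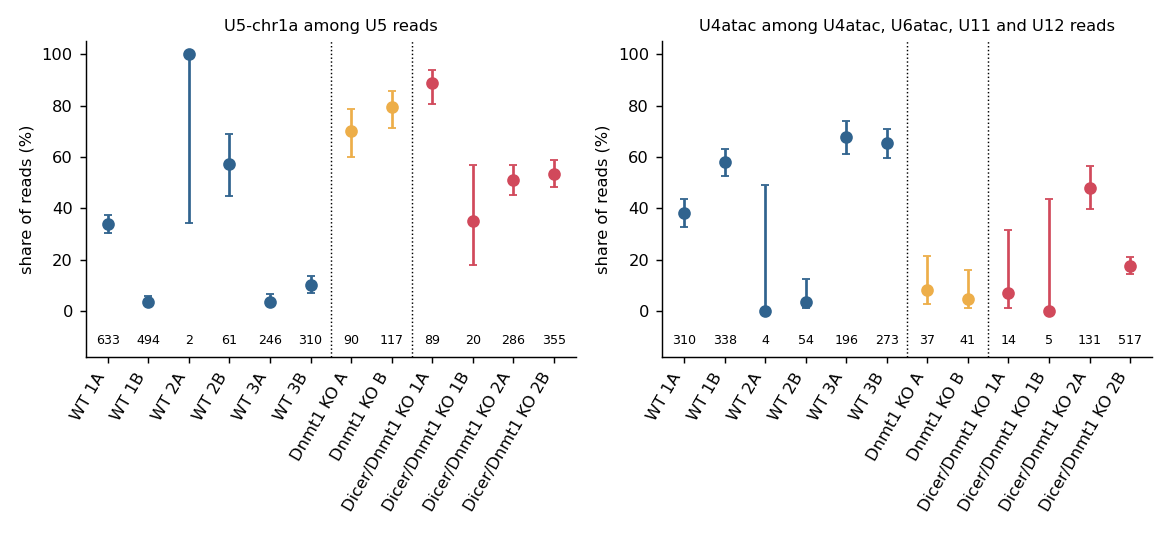
Share of reads (%, vertical axis, points with 95% Wilson intervals) that fell on U5-chr1a among all U5 reads (left) and on U4atac among U4atac, U6atac, U11 and U12 reads (right) in each library, with the number of reads in the denominator under each point. WT 1B and 3A sit at 3.64% and 3.66% on the left and at 58.0% and 67.9% on the right, while WT 2B and both Dnmt1 KO libraries sit at 57.4% to 79.5% on the left and at 3.70% to 8.11% on the right. Other libraries do not show this contrast: on the left and right WT 1A sits at 33.8% and 38.1%, Dicer/Dnmt1 KO 2A at 51% and 48.1%, and Dicer/Dnmt1 KO 1B at 35% and 0%.

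U4atac, the partner of U6atac in the minor spliceosome, was present in some cultures and near 0 in others of the same genotype. Its reads can be placed, since all of its 20-base windows are unique in the genome. WT 1A, 1B, 3A and 3B had 118, 196, 133 and 179 reads (481.3, 1351, 1843 and 1244 RPM), whereas WT 2A and 2B had 0 and 2 reads. Dnmt1 KO A and B had 3 and 2 reads (44.3 and 18.6 RPM). Dicer/Dnmt1 KO 1A and 1B had 1 and 0 reads, whereas 2A and 2B had 63 and 90 reads (993.3 and 597.2 RPM). The high and the low libraries followed the culture within each genotype: WT cultures 1 and 3 and Dicer/Dnmt1 KO culture 2 were high, and WT culture 2, Dnmt1 KO and Dicer/Dnmt1 KO culture 1 were at or near 0. With reads of A and B added, U4atac stood at 804.7, 12.8 and 1444 RPM in WT cultures 1, 2 and 3, at 28.5 RPM in Dnmt1 KO and at 30.1 and 714.5 RPM in Dicer/Dnmt1 KO cultures 1 and 2. The log2 fold changes against WT, -2.47 in Dnmt1 KO (SE 2.04, limma adjusted p 0.580) and -1.35 in Dicer/Dnmt1 KO (SE 1.61, limma adjusted p 0.652), came with SEs close to their own size, and between the knockouts the value was 1.12 (SE 2.16, limma adjusted p 0.841).

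U11 and U12, which recognise the ends of minor introns, did not show the pattern of U4atac. U11-chr4 had 185.9, 528.0 and 882.6 RPM as the lowest, median and highest WT values, 354.6 and 260.2 RPM in Dnmt1 KO, and 408.3, 459.2, 882.9 and 650.3 RPM in Dicer/Dnmt1 KO, a range of levels that overlapped in all groups (log2 fold change -0.37, SE 0.55, in Dnmt1 KO and -0.46, SE 0.43, in Dicer/Dnmt1 KO, limma adjusted p 0.776 and 0.544). U12-chr15 had 41.4, 76.3 and 248.8 RPM in WT, 147.8 and 83.6 RPM in Dnmt1 KO, and 122.5, 114.8, 189.2 and 2163 RPM in Dicer/Dnmt1 KO. The last value, 326 of the 468 U12 reads, came from library 2B alone, and its pair mate 2A had 12 reads. U12-chr15 was not called (0.39, SE 1.12, and 0.72, SE 0.89, limma adjusted p 0.897 and 0.662), and without 2B the latter fitted value was -0.41. Within the reads of the 4 minor RNAs, U4atac took 38.1%, 58.0%, 67.9% and 65.6% in WT 1A, 1B, 3A and 3B, 3.70% of 54 reads in WT 2B, 8.11% of 37 and 4.88% of 41 reads in Dnmt1 KO A and B, and 48.1% and 17.4% in Dicer/Dnmt1 KO 2A and 2B.

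The E14 2 pair decided the calls of the U5 copies and of U4atac. Without it, in a fit over 660 rows, 6 of 16 members were called in Dnmt1 KO against WT, all 6 lower, where 27.4% of all tested rows were called and 12.9% were called lower. They were U5-chr4a (-1.96, SE 0.59, limma adjusted p 0.0330), U5-chr4b (-3.56, SE 0.53, limma adjusted p 0.000794), U5-chr9b (-3.45, SE 0.81, limma adjusted p 0.0110), U4atac (-4.61, SE 1.50, limma adjusted p 0.0413), and the lesser copies U5-chr4c (-2.70, SE 0.88, limma adjusted p 0.0413) and U5-chr9a (limma adjusted p 0.0247). U5-chr4c had 0 to 331.0 RPM in WT, 14.8 and 18.6 RPM in Dnmt1 KO and 0 to 114.8 RPM in Dicer/Dnmt1 KO. U5-chr9a had 0 to 296.5 RPM in WT, 0 to 157.7 RPM in Dicer/Dnmt1 KO and 0 reads in both Dnmt1 KO libraries, and with 3 reads over the group as the floor it was at least 6.9-fold lower there than over all WT libraries. In Dicer/Dnmt1 KO against WT 4 of 16 were then called, where 29.5% of all rows were: U5-chr1a (2.41, limma adjusted p 0.0186) and Y3 (1.08, limma adjusted p 0.0453) higher, U5-chr4b (-1.71, limma adjusted p 0.0103) and U5-chr4c (-2.23, limma adjusted p 0.0360) lower. Between the knockouts 2 of 16 were called, where 33.5% of all rows were, Y3 (1.41, limma adjusted p 0.0304) and U5-chr4b (1.85, limma adjusted p 0.0177), both higher. In these fits Dnmt1 KO is 1 pair of libraries, taken as a single culture, so its spread between cultures is not measured. The pair held the lowest WT values of the 6 rows called lower in Dnmt1 KO. Leaving it out lowers their fitted values by itself, so these calls are a description and no separate support. The U5 copies share most of their sequence and are not separate results. The sum over all U5 rows was -0.50 in Dnmt1 KO against WT without the pair and was not called.

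**Figure D4:**
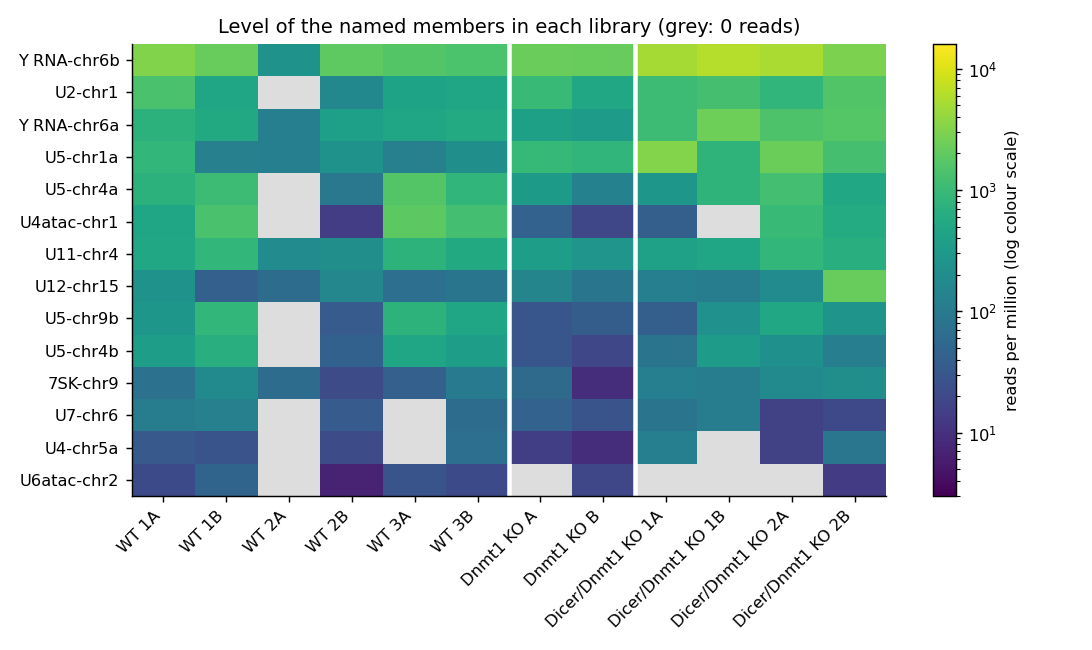
Level of the 14 named members (rows) in each of the 12 libraries (columns, white lines between the groups) in RPM on a log colour scale, grey where a library had 0 reads. U4atac, U5-chr9b and U5-chr4b have 0 to 6 reads in WT 2A and 2B and in both Dnmt1 KO libraries and are dark or grey there, and U12 is brightest in Dicer/Dnmt1 KO 2B.

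Y RNA fragments were the best-read family and stood highest in Dicer/Dnmt1 KO on the scale of library reads. Y1 had 247.8 RPM in the lowest WT library, a median of 1752 and 3169 RPM in the highest, 2261 and 2156 RPM in Dnmt1 KO, and 5022, 6200, 5313 and 2906 RPM in Dicer/Dnmt1 KO. Y3 had 123.9, 518.3 and 738.2 RPM in WT, 398.9 and 343.8 RPM in Dnmt1 KO, and 1062, 2411, 1466 and 1692 RPM in Dicer/Dnmt1 KO. All 4 Dicer/Dnmt1 KO libraries lay above all other libraries for Y3, and 3 of 4 did for Y1. How many of all tested rows lay apart in this way was not counted, here or for U5-chr1a and U2-chr1. On the scale of library reads the median log2 fold change of all tested rows was itself 0.61. On the scaled values neither was called against WT: the log2 fold change was 1.05 for Y3 (SE 0.38, limma adjusted p 0.0625) and 0.89 for Y1 (SE 0.45, limma adjusted p 0.195). The scaling decided these calls: Y3 was called with median-of-ratios factors (1.19, limma adjusted p 0.0363) and with factors set without miRNA rows (1.24, limma adjusted p 0.0494), and with library reads alone both were called (1.89 and 1.73, limma adjusted p 0.0137 and 0.0487). Library reads alone moved the median of all tested rows from -0.09 to 0.61, so the excess over that median was smaller than the values themselves. Between the knockouts Y3 had 1.07 (SE 0.51, limma adjusted p 0.202) and Y1 0.07 (SE 0.60, limma adjusted p 0.962), and in Dnmt1 KO against WT they had -0.02 (SE 0.48, limma adjusted p 0.988) and 0.82 (SE 0.57, limma adjusted p 0.497). With trimmed-mean factors Y3 was called against WT without WT 1A (1.18, limma adjusted p 0.0326), without WT 2A (1.14, limma adjusted p 0.0262) and without Dicer/Dnmt1 KO 1A (1.32, limma adjusted p 0.0267), and between the knockouts without WT 2A (1.38, limma adjusted p 0.0375). The sum of Y_RNA rows had 0.98 in Dicer/Dnmt1 KO against WT (SE 0.43, limma adjusted p 0.126) and 0.59 in Dnmt1 KO (SE 0.55, limma adjusted p 0.623), and the former was called without WT 1A (1.14, limma adjusted p 0.0385).

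The balance of Y3 to Y1 differed between libraries. Y3 took 18.9%, 20%, 16.8%, 23.3% and 29.0% of Y reads in WT 1A, 1B, 2B, 3A and 3B, and 2A held 6 Y reads in all. It took 15% and 13.8% in Dnmt1 KO A and B (95% Wilson intervals 10.5% to 20.9% and 10.2% to 18.4%), and 17.4%, 28%, 21.6% and 36.8% in Dicer/Dnmt1 KO. The highest share, 36.8% in Dicer/Dnmt1 KO 2B (33.3% to 40.5%), lay above that of its pair mate 2A (18.0% to 25.8%), so libraries of 1 culture differed by more than counting error here as well.

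U2, which pairs with the branch point of introns, was read mainly from 1 copy. U2-chr1 had 0, 444.1 and 1358 RPM as the lowest, median and highest WT values, 1005 and 492.5 RPM in Dnmt1 KO, and 1062, 1263, 851.4 and 1579 RPM in Dicer/Dnmt1 KO. The Dicer/Dnmt1 KO libraries lay above 5 of 6 WT libraries, WT 1A being inside their range, but the row was not called (log2 fold change 1.60, SE 1.05, limma adjusted p 0.341, and 1.89, SE 1.33, limma adjusted p 0.498, in Dnmt1 KO). Without WT 2A, where U2-chr1 had 0 reads, these values were 0.89 and 0.87, and without the E14 2 pair 0.59 and 0.53. Its share of U2 reads was between 53.5% and 91.7% in the 11 libraries with U2 reads. U2-chr12 and U2-chr11, which were tested too, had 149 and 104 reads and at most 244.7 and 204.2 RPM in any library.

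Reads on the other families were few. 7SK-chr9 had 21.4, 69.7 and 179.3 RPM as the lowest, median and highest WT values, 59.1 and 9.29 RPM in Dnmt1 KO, and 122.5, 114.8, 173.4 and 205.7 RPM in Dicer/Dnmt1 KO, with 118 reads in all. Its log2 fold change was -1.01 in Dnmt1 KO (SE 0.77, limma adjusted p 0.539) and 0.28 in Dicer/Dnmt1 KO (SE 0.61, limma adjusted p 0.833). U7-chr6 had 0, 49.1 and 124.1 RPM in WT, 44.3 and 27.9 RPM in Dnmt1 KO, and 81.7, 114.8, 15.8 and 19.9 RPM in Dicer/Dnmt1 KO (0.38, SE 1.04, and -0.16, SE 0.82, limma adjusted p 0.889 and 0.923). U4-chr5a, a copy of the RNA that holds U6 inactive before splicing, had 44 reads, and U6atac-chr2 had 22, with at most 122.5 and 48.3 RPM in a library, and neither passed the filter. The 3 U6 members, which are made by RNA polymerase III, had 8, 6 and 4 reads, and U1-chr12 had 6. At this depth differences in these untested rows were not detectable.

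The A and B libraries of a culture differed in opposite directions for different members. In WT culture 1, library A had a 7.03 times higher level of U5-chr1a, a 6.01 times higher level of U12 and a 2.85 times higher level of U2-chr1 than library B, while B had a 2.81 times higher level of U4atac and a 3.13 times higher level of U5-chr9b. Y1, Y3 and U11 differed by at most 1.72 times between these libraries. In Dicer/Dnmt1 KO culture 2, library B had an 11.4 times higher level of U12 than A, and A had a 2.06 times higher level of U5-chr9b and a 1.66 times higher level of U4atac than B. For U5-chr1a, Dicer/Dnmt1 KO 1A had a 4.01 times higher level than 1B, on 79 and 7 reads. These are ratios of RPM, and no scaling factor for a library can bring all members of a pair to the same level.

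The protein partners of these RNAs had few reads. Of a list of Sm, LSm, snRNP, Ro, La, 7SK and SRP proteins 76 symbols were in the table, 69 had reads, with a median of 4, and 3 were tested. Larp7, the La-related protein that binds 7SK, was lower in Dicer/Dnmt1 KO than in WT (-5.88, SE 0.67, limma adjusted p 1.29e-05) and than in Dnmt1 KO (-3.95, SE 0.90, limma adjusted p 0.00407). The row of Larp7 spans the Mir302 genes, and the table does not separate their reads from those of Larp7. Snrpb, an Sm core protein, and Ints9, of the Integrator complex that trims snRNA 3′ ends, were not called in any comparison, with log2 fold changes of -0.27 (SE 0.38) and 0.92 (SE 1.01) in Dicer/Dnmt1 KO against WT.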

How the data were processed

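Small RNA libraries of reads of 20 to 24 nt were trimmed by the authors with Trim Galore 0.3.5, aligned with Bowtie2 2.2.6 to NCBIM37 and counted over annotated genes in SeqMonk, and the deposited values are log2 RPM per row for 12 libraries. The treatment of reads with several places and of strand is not given in the sources used here, nor is the RNA input of each library. A further 89 columns belong to other series and were not used. Whole reads were recovered from the deposited log2 RPM, with 0 reads at the column minimum (0.9 of a read), and 100% of values were whole within 0.05 of a read. RPM here are recovered reads scaled to 1000000 library reads.

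RPM were scaled by trimmed means of M-values and tested with limma 3.58.1 (trend) in R 4.3.3 on log2(RPM + 10), in 1 fit of all 3 groups over rows with 111.3 RPM or more (10 reads at median depth) in at least 2 libraries and 15 reads or more in total, with Benjamini-Hochberg adjustment over all rows tested. Fold changes on this scale understate changes of low rows. Shares have 95% Wilson intervals, and 3 reads were the limit that a count of 0 allows. Named members were the best-read member of each family with 10 reads or more, the 10 best-read members, and those called in a comparison. U5-chr4c, U5-chr9a, U2-chr12, U2-chr11, and the U6 and U1 members were named after their values were seen. The members and lists were chosen with earlier results of these data known. Other scalings, pseudocounts, filters, weights, blocks and left-out libraries were tried. Sequences came from NCBIM37 and names of neighbours from RefSeq GRCm38.p6, from which no coordinates are given. The sequences of the U5 rows are not reported here.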

Additional observations from a re-analysis of the deposited data

Results flagged for a closer look

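In each group of 4 to 6 libraries the highest and the lowest level of a named member were set against the other libraries, and 4 of 30 groups held a library that stood apart by Dixon's criterion, where chance alone gives about 1 in 20. U5-chr1a stood at 872.8 RPM in WT 1A, and the next WT library had 249.6 RPM. U2-chr1 stood at 1358 RPM in the same library, with 475.8 RPM in the next. U12-chr15 stood at 2163 RPM in Dicer/Dnmt1 KO 2B, with 189.2 RPM in the next library of the group. U6atac-chr2 had 13.3 RPM in Dicer/Dnmt1 KO 2B and 0 reads in the other 3 libraries of the group, and since 13.3 RPM is 2 reads this one lies within the limit that a count of 0 allows.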

How the results depend on the processing

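U5-chr1a in Dicer/Dnmt1 KO against WT kept its direction in 28 of 28 alternatives (1.81 to 2.90) and its call in 22. Against 0 members called in Dnmt1 KO versus WT, 6 were called without the E14 2 pair, 4 without the 3 libraries under 30000 reads, and 0 to 1 when leaving out 1 library (1 without WT 1A or 2A). Of all tested rows 181 of 660 and 195 of 769 were called in the former fits, against 47 of 683 in the main fit. Without WT 1A or 2A, 44 of 568 and 84 of 735 rows were called. Against 1 in Dicer/Dnmt1 KO versus WT, 3 were called with library reads alone, 2 with median-of-ratios factors, 2 with factors set without miRNA rows, 2 without the libraries under 30000 reads and 4 without the E14 2 pair, 0 with no filter, with A and B summed or with culture as a random block, and 0 to 2 when leaving out 1 library (2 without WT 1A or 2A, 0 without Dicer/Dnmt1 KO 2B). Of all tested rows 200, 170 and 171 of 683 were called with these scalings, against 165 of 683 in the main fit. Without the libraries under 30000 reads or the pair, 222 of 769 and 195 of 660 were. With no filter, A and B summed and the random block, 133 of 14232, 137 of 857 and 138 of 683 were. Without WT 1A, WT 2A or Dicer/Dnmt1 KO 2B it was 160 of 568, 207 of 735 and 143 of 565. Against 0 between the knockouts, 1 was called with library reads alone, 2 without the E14 2 pair, 2 without the libraries under 30000 reads, and 0 to 1 when leaving out 1 library (1 without WT 2A). In this order 151 of 683, 221 of 660, 290 of 769 and 209 of 735 of all tested rows were called. The main fit called 156 of 683. Of symbol sums 1 was called in Dnmt1 KO without the E14 2 pair (U4atac, -4.26), 1 in Dicer/Dnmt1 KO with library reads alone (Y_RNA, 1.78), and 0 to 1 when leaving out 1 library (Y_RNA without WT 1A). In this order 167 of 644, 195 of 668 and 158 of 552 of all tested symbols were called.

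For libraries of the same number and letter in WT and Dicer/Dnmt1 KO, deviations from the group means had an r over 0.1 in 1 of 4 pairs (r from -0.285 to 0.112). Among 36 pairs from different groups that do not share a number, 10 had an r over 0.1 (r from -0.420 to 0.401). So few pairs of the same label, with libraries as shallow as 8710 reads, cannot show whether libraries of the same number were handled together. With culture number as a replicate block 0 of 16 members were called in Dicer/Dnmt1 KO against WT, where 124 of 673 tested rows were.

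Changes of sign were among fold changes that were not called, and the cause was not tested. With median-of-ratios factors Y3 in Dnmt1 KO against WT was 0.06, with factors set without miRNA rows 0.15 and without the members 0.25, with at least 30 reads 0.24, and 0.09 with A and B summed (-0.24 to 0.20 leaving out 1 library). In the same comparison U5-chr4a was 0.30 with pseudocount 1 (-1.31 to 0.40 leaving out 1 library), U11-chr4 0.01 with A and B summed, 7SK-chr9 -1.85 to 0.09 leaving out 1 library, and the U5 sum -0.05 with library reads alone, -0.50 without the E14 2 pair and -0.40 without the libraries under 30000 reads (-0.17 to 0.34 leaving out 1 library). U7-chr6 was there -0.22 with voom weights, -0.10 with A and B summed, -0.14 without the E14 2 pair and -0.10 without the libraries under 30000 reads (-0.09 to 0.39 leaving out 1 library). In Dicer/Dnmt1 KO against WT, library reads alone gave 0.37 for U11-chr4, 0.12 for U5-chr9b, 0.06 for U5-chr4b and 0.37 for U7-chr6, pseudocount 1 gave 0.00 for U5-chr9b and 0.60 for U7-chr6, the replicate block by culture number gave 0.39 for U5-chr9b and 0.13 for U5-chr4b, and without the libraries under 30000 reads U4atac was 0.46, U11-chr4 0.37 and U5-chr9b 0.01. U5-chr4a was there -0.01 with pseudocount 50, -0.40 with voom weights, -0.18 with A and B summed and -1.08 without the E14 2 pair. Leaving out 1 library gave -0.46 to 0.83 for U5-chr4a, -0.41 to 1.24 for U12-chr15, -1.09 to 0.24 for U5-chr9b, -0.03 to 0.66 for 7SK-chr9, -0.51 to 0.31 for U7-chr6 and -0.02 to 0.82 for the U5 sum, which was -0.35 without the E14 2 pair. Between the knockouts U5-chr1a was 0.88 with library reads alone, 0.09 with A and B summed, 0.22 without the E14 2 pair and 0.49 without the libraries under 30000 reads (-0.40 to 0.34 leaving out 1 library), and Y1 was -0.12 with factors set without the members, -0.11 with at least 30 reads, -0.09 with A and B summed and -0.07 with 2 groups only (-0.11 to 0.38 leaving out 1 library). Of 866 values of named fold changes 65 changed sign, 25 passed the threshold and 6 no longer did.

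Depth limits these results: 1 read was worth 114.8 RPM in Dicer/Dnmt1 KO 1B, 11 of 27 members could not be tested, and most members share 20-base stretches with other copies.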
